A study of Mus musculus with 426 samples.

Results

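Ptprc, Lcp1, Srgn, Cd52, Cd53, Cd48, Laptm5, Coro1a, Arhgdib and Rac2 are known for expression across most white blood cells. These 10 genes were taken by symbol from the 24424 genes of the RNA table, all were found, and each was followed through every flow-cytometry gate and organ site of a mouse pancreatic tumour model. The injected line was KPC1199-EGFP, of pancreatic tumour origin and marked with enhanced green fluorescent protein (GFP), given at 50000 cells per pancreas to male C57BL/6 mice aged 6 to 8 weeks, and tumours grew for 6 to 8 weeks. In 3 mice the primary tumour was sorted into CD45+, GFP+, EpCAM+ and GFP+EpCAM+ cells. GFP+ cells were also sorted from the peritoneum of mice 1, 2 and 3 and from the kidney, liver and spleen of mice 2 and 3. All groups come from tumour-bearing animals that received the same line, and the labels do not say whether that line is 1 clone. Single-cell libraries, 420 in number, each gave RNA and DNA of 1 cell, and 6 more libraries were bulk. The mouse is the replicate throughout.

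After 2 pairs of libraries that differed by less than sampling noise in their DNA were each counted as 1 cell, 418 cells remained, and 368 had at least 500 genes and 10000 RNA counts. They were 56 CD45+, 76 GFP+, 25 EpCAM+ and 31 GFP+EpCAM+ cells of the primary tumour, and GFP+ cells of peritoneum (85), kidney (44), liver (16) and spleen (35), with 10805 to 17845616 RNA counts each. As a check of the labels, macrophage markers in CD45+ cells summed to 22168 to 32982 CPM per mouse (a gene's counts scaled to the same library total in every cell), against 15.7 to 1181 CPM in GFP+ cells of the primary tumour. Epithelial markers summed to 12487 to 22719 CPM in EpCAM+ and 16779 to 26434 CPM in GFP+EpCAM+ cells. GFP+ cells of the primary tumour held 921 to 9936 CPM of epithelial and 4155 to 21976 CPM of fibroblast markers.

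CD45, the product of Ptprc, is a tyrosine phosphatase of the leukocyte surface that sets the activity of Src-family kinases. Because CD45 protein was the antigen of the CD45+ gate, Ptprc RNA there checks the sort. The other members act at the leukocyte membrane (the tetraspanin Cd53, the small anchored glycoprotein Cd52 and the adhesion ligand Cd48), in granules and lysosomes (the proteoglycan core Srgn and the lysosomal membrane protein Laptm5) and in the actin cytoskeleton and its regulation. In that last group Lcp1 bundles actin filaments, Coro1a binds them and Rac2 is a small GTPase of phagocytes and lymphocytes, and Arhgdib is counted with them.

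Start-site windows are shown for Ptprc, the gene of the gate, and for Cd53 and Arhgdib, the pair of members detected in the most cells of the tumour gates, as the gates and sites other than CD45+ are called here. They are RefSeq windows of build GRCm38.p6 that reach from 250 bases before to 50 after a start, all on the minus strand and written 5′ to 3′ along the gene. Capitals mark matches on either strand, wherever they lie in the window, to TGTGGT (RUNX), GAGGAAGT (PU.1) or TATAAA (the letters of a TATA box).
Ptprc, chr1:138175256-138175555: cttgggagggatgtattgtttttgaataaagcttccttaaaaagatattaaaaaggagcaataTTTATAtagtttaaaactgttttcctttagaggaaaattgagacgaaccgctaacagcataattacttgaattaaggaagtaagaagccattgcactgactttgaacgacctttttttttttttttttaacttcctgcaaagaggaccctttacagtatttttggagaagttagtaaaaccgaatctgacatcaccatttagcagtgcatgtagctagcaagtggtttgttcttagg
Cd53, chr3:106790100-106790399: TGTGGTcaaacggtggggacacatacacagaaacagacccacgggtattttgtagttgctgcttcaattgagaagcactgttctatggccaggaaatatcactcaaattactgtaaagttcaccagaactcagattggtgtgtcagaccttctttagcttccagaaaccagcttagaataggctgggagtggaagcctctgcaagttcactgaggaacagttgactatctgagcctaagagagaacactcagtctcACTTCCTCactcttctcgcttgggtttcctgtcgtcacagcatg
Arhgdib, chr6:136939478-136939777: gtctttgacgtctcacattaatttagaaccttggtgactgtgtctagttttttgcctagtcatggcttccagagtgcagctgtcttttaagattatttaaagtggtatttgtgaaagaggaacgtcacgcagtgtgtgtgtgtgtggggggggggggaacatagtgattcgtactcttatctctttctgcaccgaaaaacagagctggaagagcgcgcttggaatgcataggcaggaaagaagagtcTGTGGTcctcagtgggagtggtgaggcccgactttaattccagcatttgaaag
Windows were matched for 8 of 10 members, 14 windows in all, with Cd52 and Rac2 unmatched. TGTGGT lay in 4 of the 14 windows (of Arhgdib, Cd48, Cd53 and Srgn) and in 16.8% of all 32851 windows. GAGGAAGT lay in 1 of 14 (Cd53) and in 3.20% of all windows, and TATAAA in 4 of 14 (of Arhgdib, Laptm5, Ptprc and Srgn) and in 13.6%. Arhgdib has 3 windows, and its TATAAA matches lie in one that is not printed. Ptprc has another window, chr1:138175077-138175376, not printed, which holds no match to TGTGGT, GAGGAAGT or TATAAA. The ETS core GGAAG, which lies within GAGGAAGT, was in 11 of 14 and in 71.4%. These are matches of letters and show no binding.

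Within the CD45+ gate, 49 of 56 cells held 5 or more members at 10 CPM or more, the level at which a gene is called detected here, and no cell held fewer than 2. Levels are means over the cells of a mouse, each cell weighted alike, given for mice 1, 2 and 3 in turn. Ptprc averaged 254, 140.2 and 250.3 CPM and was detected in 43 of 56 cells (76.8%, exact binomial 95% interval 63.6 to 87.02%). This and the other intervals over cells cover counting error only. The surface gene Cd52 averaged 468, 1053 and 239 CPM, with 43 of 56 cells. Cd53 averaged 399.9, 1379.5 and 5251 CPM, with 44 of 56 cells, so its mean differed more between mice than its detection, which was 14 of 22, 20 of 20 and 10 of 14 cells. Cd48 was the exception among the surface genes. It averaged 460.0 and 60.5 CPM in mice 1 and 2 but 0.158 CPM in mouse 3, where 0 of 14 cells had it at 10 CPM, and it was detected in 17 of 56 cells (30.4%).

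Of the granule and lysosome genes, Srgn averaged 907, 901 and 1601 CPM in CD45+ cells and was detected in 47 of 56. Laptm5 averaged 318, 2285 and 1128 CPM and was detected in 39 of 56, being in 20 of 20 cells of mouse 2 and 11 of 22 of mouse 1. Mouse 1 was thus the low one for Laptm5 and mouse 3 the high one for Srgn. Among the cytoskeletal genes, Lcp1 averaged 1121, 631 and 1130.3 CPM and was detected in 50 of 56 cells (89.3%), and Rac2 averaged 1431, 1238 and 1014 CPM in 36 of 56. Arhgdib averaged 6057, 1696 and 866 CPM in 45 of 56 cells. Coro1a averaged 71.4, 374 and 259 CPM in 29 of 56 cells. The spread over mice was 1228 ± 209 CPM for Rac2 but 2343 ± 2565 CPM for Cd53 and 2873 ± 2789 CPM for Arhgdib (mean ± SD, n = 3), so for these last genes the SD was about as large as the mean. Means rested on single high cells: without the highest cell of a mouse, 14 of the 30 means over member and mouse fell by more than 1.5 times. For Rac2 they became 649, 982 and 573 CPM, 1 cell of mouse 1 having 17870 CPM. Rac2 had medians of 7.92, 356 and 19.5 CPM and was detected in 10 of 22, 19 of 20 and 7 of 14 cells.

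**Figure D1:**
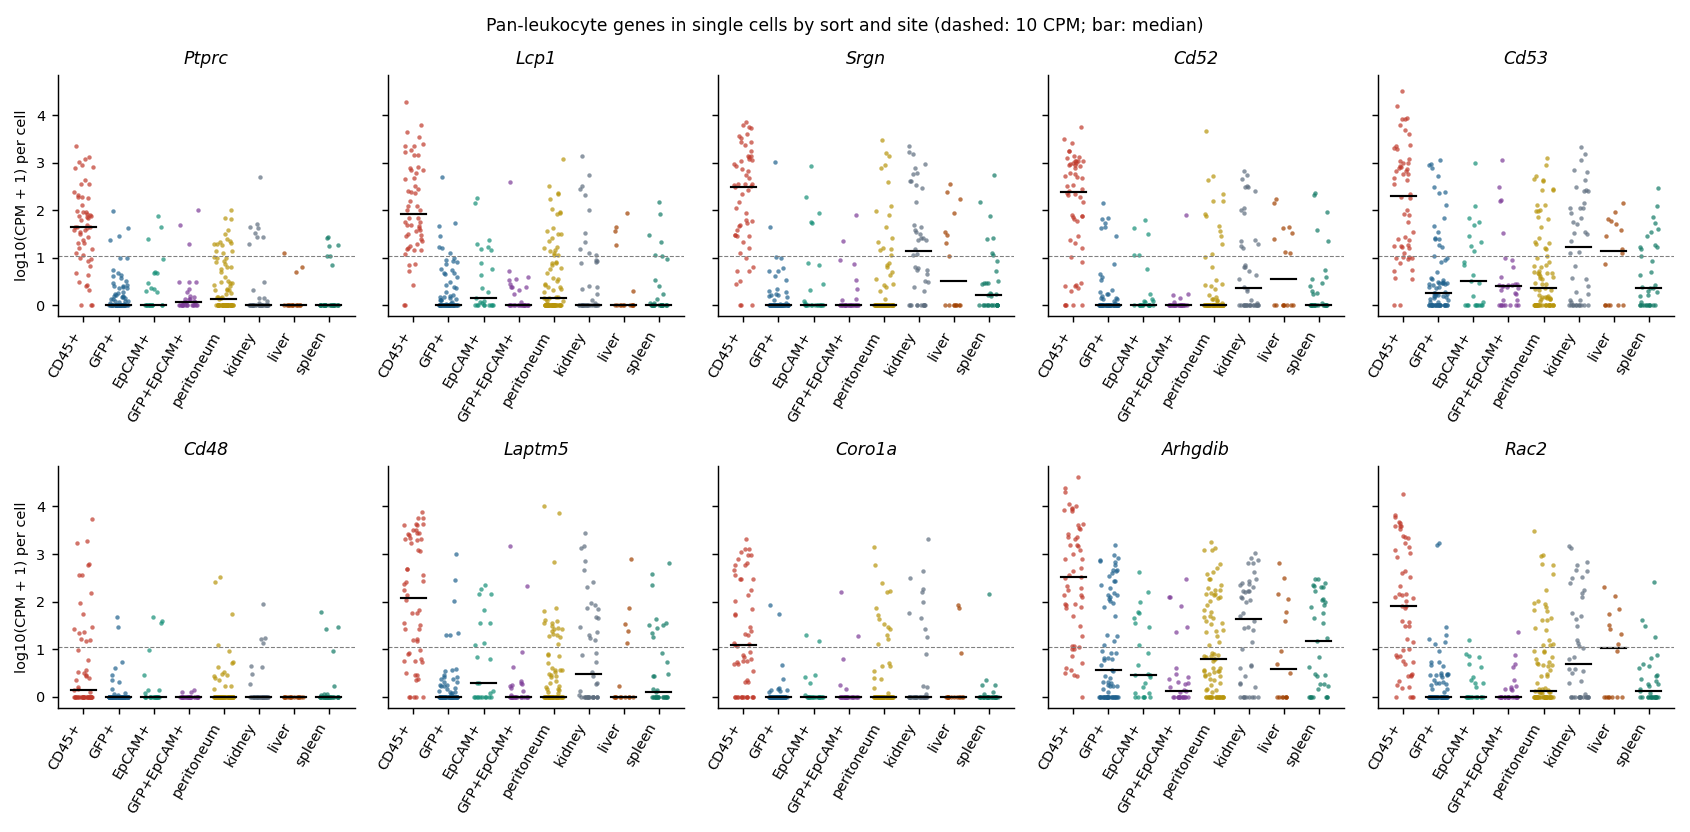
Each point is 1 cell, placed by log10(CPM + 1) of a member (vertical axis) in its sort or site (horizontal axis), with the group median as a bar and 10 CPM as a dashed line. CD45+ medians lie above the line for every member but Cd48, and Arhgdib and Cd53 have the most cells above it in GFP+, GFP+EpCAM+, peritoneum and spleen cells.

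CD45+ cells were then set by lineage, each cell going to the marker list with the largest share of its genes at 10 CPM, if that share was at least 0.3. Of 56 cells, 31 went with macrophage markers, 12 with neutrophil, 6 with T and natural killer and 1 with B markers. The other 6 fell under that share and were not assigned. Members per cell had a median of 8 in macrophage-like, 6.5 in neutrophil-like and 7 in T and natural killer-like cells, so no lineage lacked the list. Single genes were uneven. Cd48 was at 10 CPM in 14 of 31 macrophage-like cells and 0 of 12 neutrophil-like cells, while Srgn and Cd53 were in 12 of 12 neutrophil-like cells. Ptprc, Lcp1, Arhgdib and Rac2 were in 6 of 6 T and natural killer-like cells. These are counts over cells of 3 mice with no test, and macrophage-like cells were 12, 15 and 4 by mouse, neutrophil-like cells 3, 4 and 5.

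Against GFP+ cells of the primary tumour, CD45+ cells were higher for 5 of 10 members: Ptprc, Lcp1, Srgn, Cd52 and Cd48. The test was edgeR's quasi-likelihood fit on counts summed per mouse and sort, with Benjamini-Hochberg adjustment over 19703 genes. In that comparison 0.629% of all genes were called higher. The fitted differences below are log2 CD45+ minus GFP+ with the standard error taken as the difference over the root of F. The CPM behind them are those of the sums, where deep cells weigh most, for mice 1, 2 and 3. In all 3 comparisons with CD45+ cells the direction of Ptprc follows from the gate.

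Lcp1 stood at 2105, 868 and 1131 CPM in CD45+ sums against 1.46, 1.34 and 2.13 CPM in GFP+ sums, a difference of 9.47 ± 1.58 (edgeR adjusted p = 0.00221). Srgn stood at 1193, 1277 and 1924 CPM against 0.260, 0.201 and 3.19 CPM, a difference of 10.12 ± 2.16 (edgeR adjusted p = 0.0195). For both genes the CD45+ and GFP+ sums lay far apart in every mouse. Ptprc, at 378, 160.0 and 461 CPM against 2.20, 1.62 and 0.605 CPM, differed by 7.95 ± 1.87 (edgeR adjusted p = 0.0344). Cd52, at 737, 1171 and 253 CPM against 0.189, 0.897 and 6.56 CPM, differed by 7.92 ± 1.83 (edgeR adjusted p = 0.0309). Over all alternative fits (edgeR, DESeq2 and limma) adjusted p ran from 2.77e-21 to 0.0855 for Lcp1 and from 9.17e-10 to 0.0973 for Srgn. For Ptprc it ran from 1.68e-12 to 0.41, and for Cd52 from 9.73e-10 to 0.291. Cd48 was called on mice 1 and 2. It stood at 563 and 61.8 CPM there and at 0.165 CPM in mouse 3, beside 0.165, 0.0535 and 0.0711 CPM in GFP+ sums, so its groups overlapped, and its difference of 10.28 ± 2.50 (edgeR adjusted p = 0.0439) did not hold in the fit blocked by mouse (adjusted p = 0.0811), and over all alternatives its adjusted p ran from 7.08e-12 to 0.266.

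The other 5 members, Cd53, Laptm5, Coro1a, Arhgdib and Rac2, missed the threshold, although all 3 CD45+ sums lay above all 3 GFP+ sums for each. Counting such separation, 9 of 10 members had groups that did not overlap, beside 6.54% of all genes. Arhgdib stood at 5947, 587 and 995 CPM in CD45+ and at 0.944, 299 and 195 CPM in GFP+ sums, a difference of 3.08 ± 1.47 (edgeR adjusted p = 0.275). The GFP+ sum of mouse 1 was low and those of mice 2 and 3 were not. Cd53 stood at 499, 1542 and 3079.6 CPM against 146, 52.6 and 32.8 CPM, a difference of 5.01 ± 1.51 (edgeR adjusted p = 0.105). Rac2 stood at 1387, 1273 and 1215 CPM against 0.567, 0.134 and 285 CPM (3.49 ± 1.77, edgeR adjusted p = 0.306), and Laptm5 at 520.2, 3045 and 1606 CPM against 1.16, 0.321 and 122 CPM (5.41 ± 1.68, edgeR adjusted p = 0.114). In GFP+ cells of mouse 3, cell 25 alone gave 52.2% of the Rac2 counts and 80.8% of the Laptm5 counts, and without it those sums were 150.85 and 25.9 CPM. Coro1a stood at 119.8, 492 and 429.6 CPM against 0.165, 20.3 and 0.0830 CPM (5.84 ± 2.08, edgeR adjusted p = 0.162), with 96.6% of its GFP+ counts in mouse 2 from 1 cell. The median over the 10 members was 6.88, against 0.20 over all genes tested.

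Against EpCAM+ cells, 8 of 10 members were higher in CD45+ cells, beside 0.619% of all genes. The exceptions were Srgn (7.47 ± 1.94, edgeR adjusted p = 0.0595) and Cd48 (6.93 ± 2.18, edgeR adjusted p = 0.118), and Srgn passed in the blocked fit (adjusted p = 0.00516), with adjusted p from 9.93e-05 to 0.251 over all alternatives. Arhgdib (8.07 ± 1.85, edgeR adjusted p = 0.0294), Rac2 (11.19 ± 2.47, edgeR adjusted p = 0.0236) and Cd53 (7.58 ± 1.70, edgeR adjusted p = 0.0251), not called against GFP+ cells, were called here. Groups did not overlap for 9 of 10 members, beside 6.45% of all genes. Against GFP+EpCAM+ cells 6 of 10 members were higher (Lcp1, Srgn, Cd52, Cd48, Laptm5 and Rac2), beside 1.18% of all genes, and groups did not overlap for 10 of 10, beside 21.7%. Cd48 had 3 counts in all in GFP+EpCAM+ cells, so no fold is given for it. In the blocked fit Cd53 (adjusted p = 0.058 without, 0.0184 with) and Arhgdib (0.0829 without, 0.0489 with) were called too. The 3 comparisons share the CD45+ samples, and the differences between them were not tested.

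How many members passed depended on mouse 3 and on which cells were summed. Without mouse 3 the counts for GFP+, EpCAM+ and GFP+EpCAM+ in turn were 1, 0 and 0, and without mouse 2 they were 2, 2 and 5. Calls over all genes fell too, from 124, 122 and 233 of 19703 to 17, 10 and 10 of 20562 without mouse 3. Without mouse 2 they were 43, 45 and 60 of 20000. Restricted to cells whose DNA was on the side of their gate (score cut 0.5, defined below), members called were 3, 6 and 6. With a cut of 0.25 they were 2, 4 and 6. Over all genes these cuts gave 75, 82 and 121 of 18925, and 96, 106 and 165 of 19069. Both cuts were chosen after seeing the data.

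**Figure D2:**
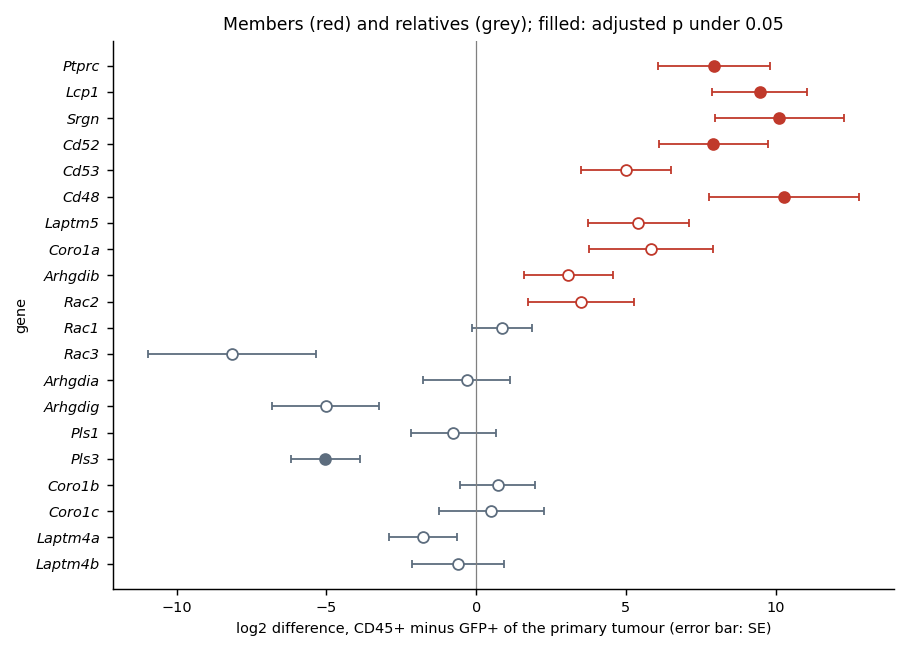
Fitted log2 difference of CD45+ minus GFP+ cells of the primary tumour (horizontal axis) for the 10 members in red and 10 relatives in grey (vertical axis), with the standard error as bars and filled points for adjusted p under 0.05. Members lie to the right, from 3.08 (Arhgdib) to 10.28 (Cd48), and 7 of 10 relatives lie left of 0.

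Rac2, Arhgdib, Lcp1, Coro1a and Laptm5 have close relatives outside the leukocyte list, and none of these 10 relatives was called higher in CD45+ cells. Against GFP+ cells 0 of 10 relatives were called higher and 1 lower, with a median log2 difference of -0.68. The one called was Pls3, the plastin of non-blood tissues, at 8.91 to 20.4 CPM in CD45+ sums and 310 to 747 CPM in GFP+ sums (-5.04 ± 1.15, edgeR adjusted p = 0.0309). Pls3 was lower also against EpCAM+ (-6.40, edgeR adjusted p = 0.0088) and GFP+EpCAM+ cells (-5.63, edgeR adjusted p = 0.0144), opposite in sign to Lcp1. Rac1, the ubiquitous relative of Rac2, differed by 0.86 ± 1.00 (edgeR adjusted p = 0.676), and Arhgdia, that of Arhgdib, by -0.32 ± 1.46 (edgeR adjusted p = 0.923). Neither difference exceeded its standard error.

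Among 32 other genes of leukocyte signalling and cytoskeleton, 6 were called higher in CD45+ than in GFP+ cells, 12 against EpCAM+ and 18 against GFP+EpCAM+ cells, and 0 were called lower. The 6 were Selplg (P-selectin ligand), Plek (pleckstrin), the Src-family kinases Lyn and Lck on which CD45 acts, Itgb2 (the leukocyte integrin beta chain) and Fcer1g (an Fc receptor adaptor). Over all 32 the median log2 difference against GFP+ cells was 6.55, near the members' 6.88. Over 21 sums of mouse and group, the genes whose log2(CPM + 1) followed the members' mean most closely were Csf2rb (Pearson r = 0.944), Fgr (0.943), Lilrb4a (0.939) and Fcgr3 (0.933), then Ccl4, Cyp4f18, Lcp2, Bcl2a1d, Selplg and Ms4a6d, out of 8612 genes ranked. Members followed their own mean with r from 0.705 (Cd48) to 0.959 (Lcp1). Each member is part of that mean, which raises its r by construction, so these values are not comparable with those of other genes. These correlations describe sums that share mice and differ in depth.

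Outside the CD45+ gate the list came apart by gene, and Arhgdib and Cd53 were the members most often detected in GFP+ cells of the primary tumour. Arhgdib was at 10 CPM in 29 of 76 such cells (38.2%, 27.2 to 50.0%) and Cd53 in 17 of 76 (22.4%, 13.6 to 33.4%), while the other 8 members were each in 2 to 7 cells. Per mouse, Arhgdib was in 0 of 31, 12 of 18 and 17 of 27 cells, with means of 1.18, 201 and 244 CPM. No GFP+ cell of mouse 1 exceeded 7.19 CPM, and more than 10 cells each of mice 2 and 3 did. Cd53 ran the other way, in 10 of 31, 4 of 18 and 3 of 27 cells, with means of 113, 21.9 and 60.8 CPM, and its highest mean was in mouse 1. Of the 76 cells, 33 had no member at 10 CPM, 25 had 1, and 3 had 5 or more. The relative Arhgdia was likewise low in mouse 1 (9.81 CPM, against 803 and 1064 CPM in mice 2 and 3), which was also so in the CD45+ gate (7.98, 749 and 384 CPM).

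No member was called between EpCAM+ or GFP+EpCAM+ and GFP+ cells by the edgeR test (0 of 10 in each, beside 0.0% of all genes higher and 0.0% lower). At an unadjusted p under 0.05 there were 4 and 3 members, beside 2256 and 2002 of all 19703 genes. Among genes with an adjusted p, DESeq2 called 573 of 12322 and 477 of 14064 lower than in GFP+ cells. Of the members it called 1 (Rac2) and 3 (Cd52, Laptm5 and Rac2), all lower than in GFP+ cells, where all 3 genes rest on few cells of mouse 3. In that mouse cell 25, with a DNA score of 0.48, gave 94.6% of the Cd52, 80.8% of the Laptm5 and 52.2% of the Rac2 counts. Without it the sums of mouse 3 went from 6.56 to 0.394 CPM for Cd52, from 122 to 25.9 CPM for Laptm5 and from 285 to 151 CPM for Rac2. EpCAM+ cells had 5 or more members in 5 of 25 cells, and GFP+EpCAM+ cells in 1 of 31. In EpCAM+ cells the number of members was lower in cells with more RNA counts (Spearman rho = -0.787, n = 25) and higher in those with more macrophage markers (rho = 0.877). Both are descriptions over cells of 3 mice, and the part of either in the members' detection was not tested.

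**Figure D3:**
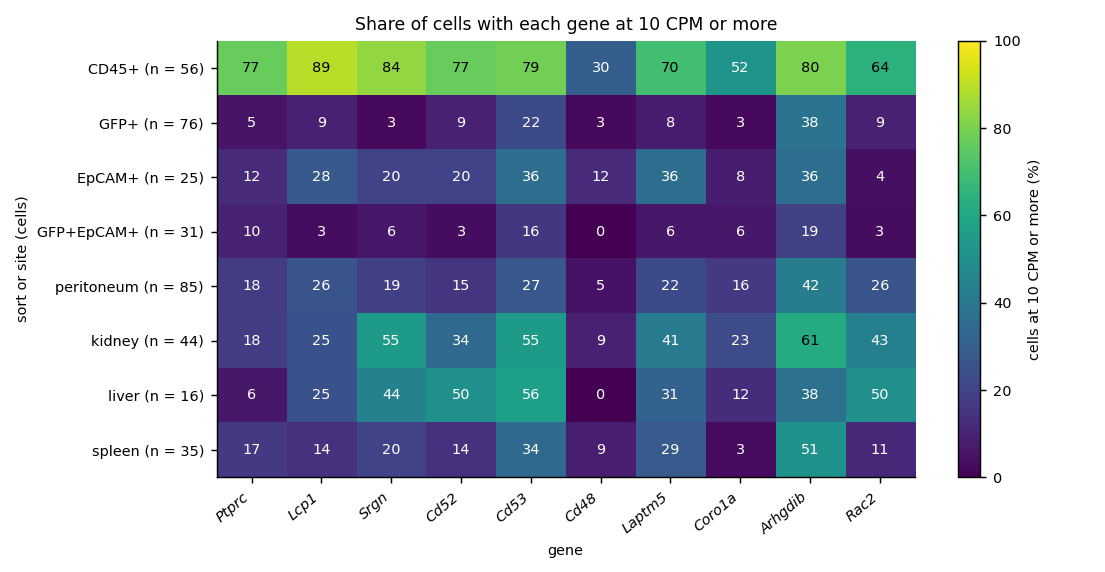
Percentage of cells with each member (columns) at 10 CPM or more, by sort or site (rows, with the number of cells). CD45+ cells have the highest share for every member, from 30 (Cd48) to 89 (Lcp1), and kidney and liver come next for Srgn, Cd53 and Rac2.

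Counted by cell, pooled over mice and with no test, GFP+ cells of the kidney and liver held more members than GFP+ cells of the primary tumour. Cells with 5 or more members were 16 of 44 from kidney, 6 of 16 from liver, 14 of 85 from the peritoneum and 6 of 35 from spleen, against 3 of 76 in the primary tumour. Kidney, liver and spleen cells came from mice 2 and 3 only, whereas 31 of the 76 primary cells came from mouse 1. Site and mouse are thus mixed in these counts. Srgn was detected in 24 of 44 kidney cells (54.5%, 38.8 to 69.6%) and 7 of 16 liver cells, against 2 of 76 in the primary tumour. Rac2 was in 19 of 44 kidney and 8 of 16 liver cells, against 7 of 76. Ptprc was in fewer, 8 of 44 kidney and 1 of 16 liver cells. Depth differed with the site: the median cell had 65672 RNA counts in liver and 522487 in kidney, against 1614521 in GFP+ cells of the primary tumour, and at the median depth of liver a single count passes 10 CPM. Thinned to 50000 counts per cell and scored by at least 1 count, the share of member-and-cell pairs was 33.2% in kidney and 32.2% in liver against 11.5% in the primary tumour, and 36.4%, 31.25% and 10.9% unthinned. Thinning kept only cells with at least 50000 counts: 37 of 44 in kidney, 9 of 16 in liver and 66 of 76 in the primary tumour. The thinned and unthinned shares are thus not of the same cells. Macrophage markers, 10 of 10 with counts in each site, summed to 73.03 to 4999.8 CPM per mouse in kidney, 85.8 to 576 CPM in liver, 21.5 to 1393 CPM in peritoneum and 10.9 to 172 CPM in spleen, against 15.7 to 1181 CPM in the primary tumour. Neutrophil markers, 8 of 8 with counts in each site, summed to 42.7 to 129 CPM in kidney, 87.7 to 328 CPM in liver, 23.3 to 23.7 CPM in spleen and 4.77 to 534 CPM in peritoneum, against 4.91 to 7.40 CPM in the primary tumour. The summed level of every mouse was thus above the primary tumour in kidney, liver and spleen, and in peritoneum mouse 2 was the high one. Single markers did not all follow the sum. In kidney of mouse 2, Csf3r stood at 94.8 and Cxcr2 at 30.7 of the 129 CPM. S100a8 was at 0 and S100a9 at 0.559 CPM there, against 2.66 and 2.26 CPM in the primary tumour of mouse 2. In liver of mouse 2 S100a9 was higher, at 42.8 CPM. The part of either list in the sites' values was not tested.

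The mouse means show how uneven this was. Srgn averaged 312 and 153 CPM in kidney of mice 2 and 3, 70.03 and 47.5 CPM in liver and 35.7 and 12.98 CPM in spleen. In peritoneum it averaged 2.60, 344 and 2.16 CPM in mice 1, 2 and 3, and in the primary tumour 0.685, 0.307 and 40.5 CPM, of which 1 cell gave 86.6% of the counts in mouse 3. Mouse 2 was thus high in peritoneum and kidney and low in the primary tumour. Rac2 averaged 246 and 43.4 CPM in kidney, 46.3 and 21.8 CPM in liver, 15.7 and 5.84 CPM in spleen and 7.32, 287 and 10.7 CPM in peritoneum. Among the sites Coro1a was above 100 CPM only in mouse 2, at 146 CPM in kidney and 114 CPM in peritoneum, against 2.01 and 5.34 CPM in mouse 3. Without the highest cell of each, these means of mouse 2 were 58.7 and 57.003 CPM. That of Srgn in kidney of mouse 3 was then 48.1 CPM and that of Rac2 in peritoneum of mouse 2 was 167 CPM. On the same basis Srgn was 46.04 and 4.24 CPM in liver of mice 2 and 3 and 5.98 and 4.39 CPM in spleen. Rac2 was then 24.7 and 6.41 CPM in liver and 1.16 and 3.69 CPM in spleen. By more than the fold used for CD45+ cells, 17 of 20 liver means and 16 of 20 spleen means fell. So did 14 of 20 in kidney, 23 of 30 in peritoneum and 21 of 30 in GFP+ cells of the primary tumour. Laptm5 averaged 20.7 and 341 CPM in kidney of mice 2 and 3 and 2.83, 307 and 509.8 CPM in peritoneum of mice 1, 2 and 3. The peritoneal means of mice 2 and 3 rested on 1 cell each, at 7219 and 10240 CPM, without which they were 6.07 and 46.4 CPM. Arhgdib averaged 22.4 to 192 CPM over the sites and mice. Its lowest mean, in liver of mouse 2, was 9.40 CPM without the highest cell.

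By edgeR no member was called between any site and the primary GFP+ cells (0 of 10 in each of the 4 comparisons). Over all 21988 genes, 0.0% were called higher and 0.0091% lower in peritoneum, 0.0% and 0.0% in kidney, 0.00455% and 0.0091% in liver, and 0.0% and 0.0% in spleen. At an unadjusted p under 0.05 there were 2 members for peritoneum, 2 for kidney, 2 for liver and 1 for spleen. Beside them stood 1341, 1321, 3130 and 1355 of all 21988 genes, in the same order. DESeq2 and limma called 0 members. With 2 mice for kidney, liver and spleen, and 75.3% of the liver counts of mouse 2 from 1 cell, these comparisons carry a wide error.

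**Figure D4:**
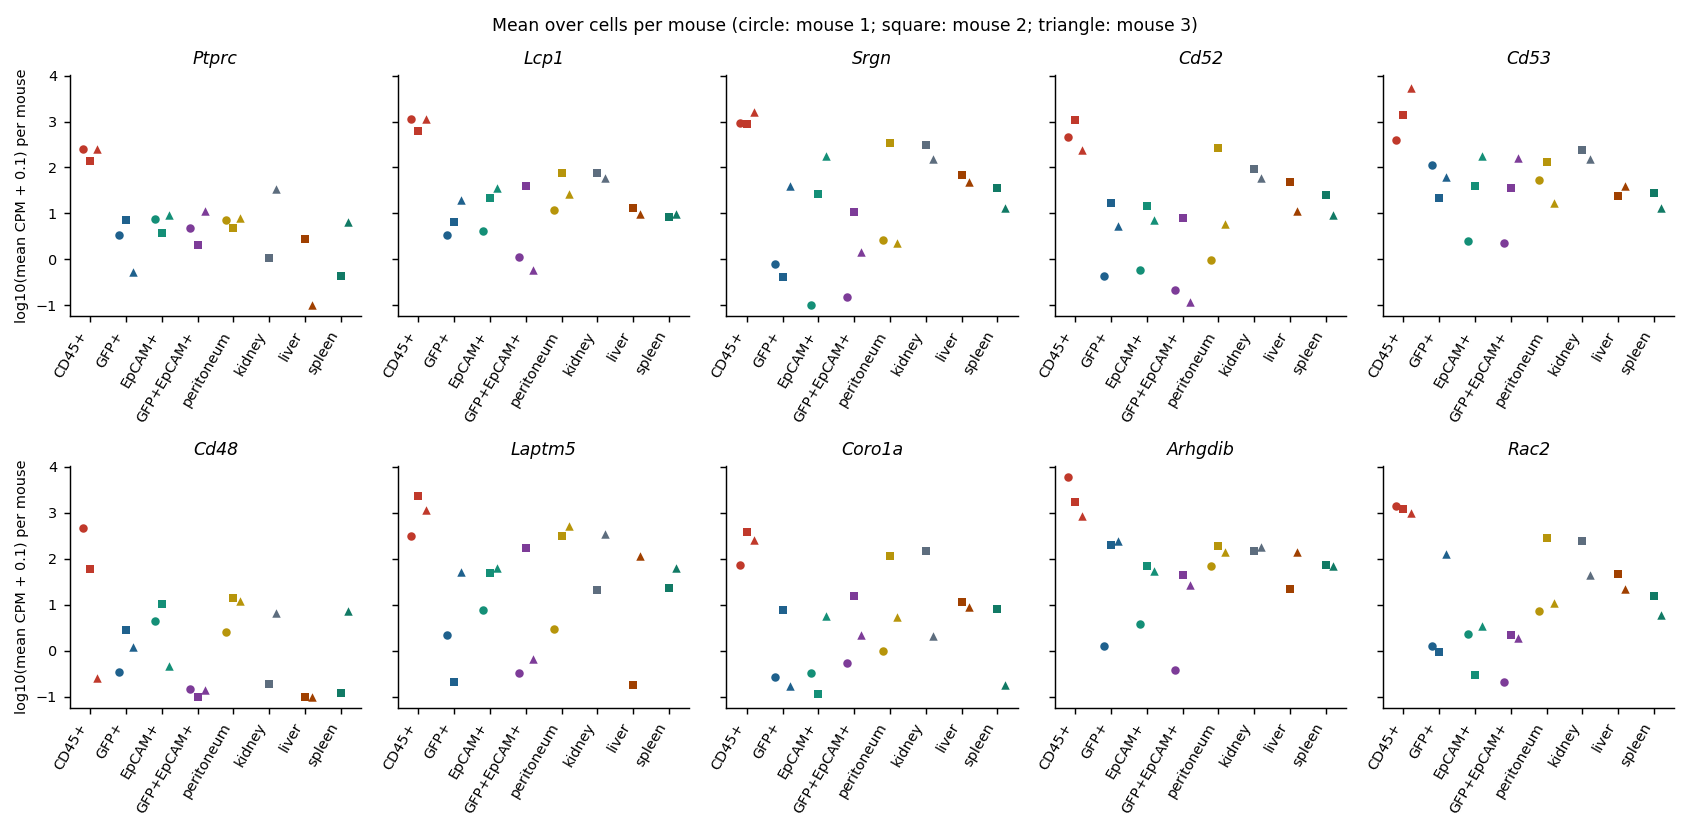
Mean over cells of each member in each mouse, as log10(mean CPM + 0.1) (vertical axis), by sort or site (horizontal axis), with a circle for mouse 1, a square for mouse 2 and a triangle for mouse 3. Within each mouse the CD45+ mean is the highest for all members except Cd48 of mouse 3, and in the peritoneum mouse 2 (344 CPM) stands above mice 1 and 3 for Srgn.

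The DNA of the same cell was used to ask whether member-rich cells in tumour gates had the genome of the tumour. A score set each cell's chromosome profile on a line where 0 is the median CD45+ cell and 1 the median GFP+ cell of the primary tumour, so these ends are fixed by construction. It was given to 316 cells with at least 50000 DNA reads. Scores between the ends exist, so both a cut of 0.5 and a cut of 0.25 are reported. In the 7 tumour gates and sites, 244 cells scored 0.5 or more, and 35 of them (14.3%, 10.2 to 19.4%) held 5 or more members. Of 19 cells under 0.5, 8 did, and of 10 under 0.25, 6 did.

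Of the 10 cells under 0.25, 6 came from kidney and peritoneum of mouse 3. Kidney cells 53, 64, 65 and 67 of mouse 3 scored between -0.06 and 0.17, held 10, 9, 9 and 8 members and had 6 to 10 of 10 macrophage markers at 10 CPM. Kidney cell 53 had Ptprc at 488 CPM, the highest of any cell outside the CD45+ gate, and it is the source of 90.9% of the kidney Ptprc counts of mouse 3. Peritoneal cell 92 of mouse 3 scored -0.11, with 8 members and 10 of 10 macrophage markers, and peritoneal cell 88, which scored 0.05, held Laptm5 at 10240 CPM as its 1 member. In the other direction, CD45+ cell 80 of mouse 3 scored 0.92 with 6 members and Cd53 at 8637 CPM. These cells were chosen after their values were seen.

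**Figure D5:**
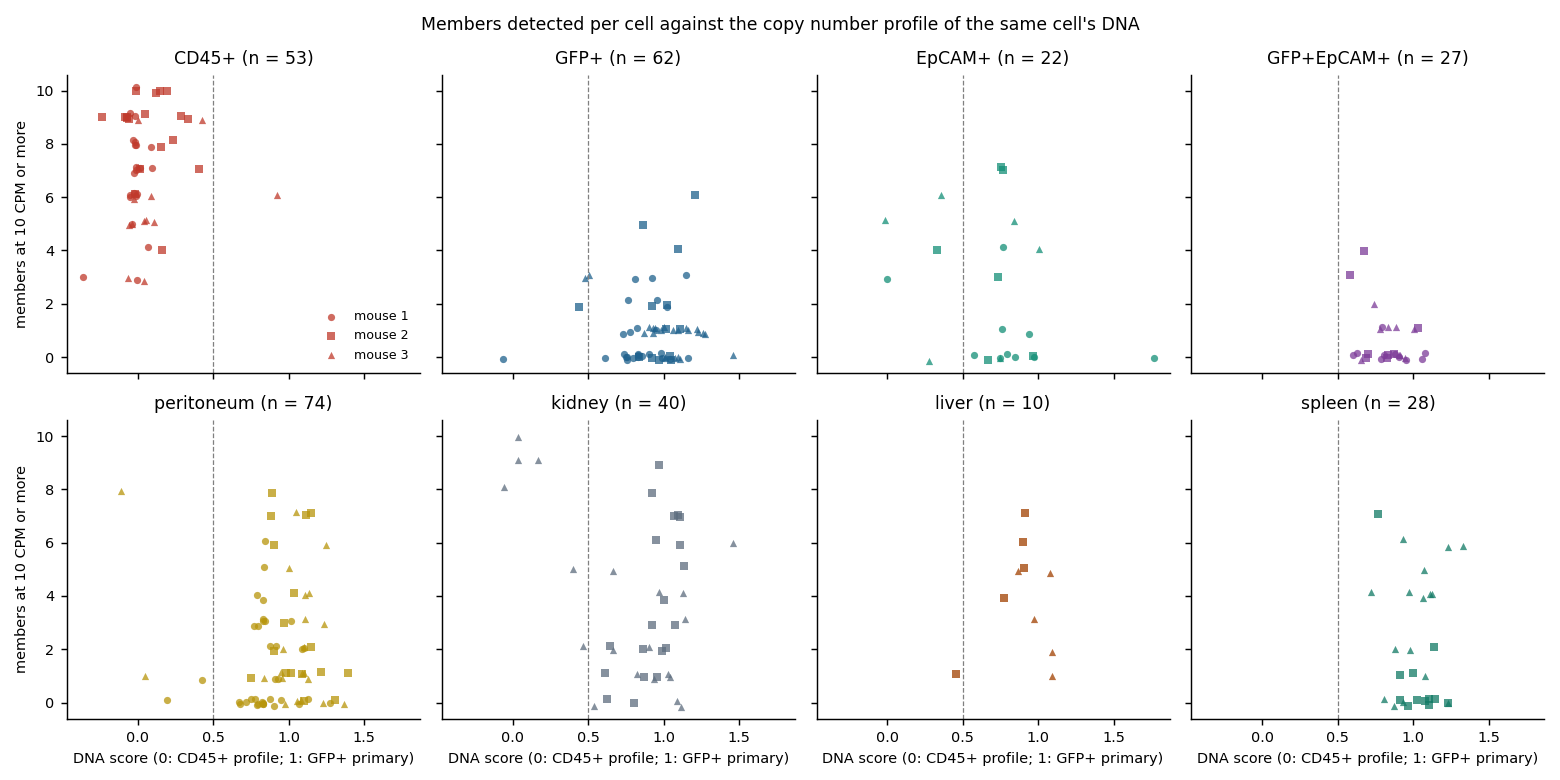
Number of members at 10 CPM or more (vertical axis, 0 to 10) against DNA score (horizontal axis) for each cell with a score, in 1 panel per sort or site. CD45+ cells lie near score 0 with a median of 7 members, tumour-gate cells lie mostly near 1 with few, and kidney has 4 cells near 0 with 8 to 10.

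Among the 244 cells with a score of 0.5 or more in tumour gates, Arhgdib was detected in 99 (40.6%, 34.4 to 47.02%) and Cd53 in 75 (30.7%, 25.01 to 36.9%). Laptm5 followed with 47 cells, Rac2 with 46, Srgn with 43, Lcp1 with 41, Ptprc and Cd52 with 33 each, Coro1a with 22 and Cd48 with 10 (4.10%). With the cut at 0.25, Arhgdib was in 103 of 253 cells and Cd53 in 77. Arhgdib or Cd53 was present in 126 of the 244 cells, of which 49 had none of the other 8 members and 24 had Ptprc. In GFP+ cells of the primary tumour, 32 of 59 had either gene and 22 of those had none of the other 8, whereas Srgn was in 0 of 59 (exact interval 0 to 6.06%). Arhgdib and Cd53 were thus the members detected most often without others in cells with tumour DNA.

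Srgn and Rac2 appeared together in cells with tumour DNA from mouse 2, a pattern noticed after the values were seen and given without a test. At the 4 sites, 29 of 141 cells scoring 0.5 or more had both: 23 of 53 in mouse 2, 5 of 55 in mouse 3 and 1 of 33 in mouse 1. The 23 were 11 of 20 kidney, 7 of 17 peritoneal, 4 of 4 liver and 1 of 12 spleen cells of mouse 2. Of the 23, Cd52 was in 17 and Coro1a in 14, Cd48 in 0 and Ptprc in 4, with Ptprc at 0 counts in 13. In the CD45+ gate 31 of 56 cells had both genes, and there 27 had Ptprc and 1 was at 0. Within the gate, neutrophil-like cells with both genes had Ptprc in 5 of 7 and Cd48 in 0 of 7, and macrophage-like cells in 17 and 7 of 19. In the kidney and peritoneal cells of mouse 2 with both, the median number of macrophage markers at 10 CPM was 2 of 10 and that of fibroblast markers 8 of 9. In the 4 liver cells the medians were 1.5 and 3, and the 1 spleen cell had 4 and 6. The fibroblast medians were not set against cells without the pair. Neutrophil markers moved with the pair: all 23 cells had 2 to 5 of 8 at 10 CPM, against 2 of the other 30 cells of mouse 2 with 2 or more. The markers were mostly the receptors Csf3r, in 23 of 23 cells with a median of 632.5 CPM, and Cxcr2, in 22 of 23. S100a9 was in 6 of 23 and S100a8 in 0 of 23, whereas neutrophil-like CD45+ cells had them in 12 and 11 of 12, Csf3r in 9 and Cxcr2 in 2. Those 12 cells were picked by the marker list that holds S100a8, S100a9, Csf3r and Cxcr2, which raises their detection there by construction. They pool 3 mice, with 4 from mouse 2. In the sum over all CD45+ cells of mouse 2, Csf3r stood at 2472 CPM and Cxcr2 at 601 CPM, beside S100a9 at 679 and S100a8 at 316 CPM. In CD45+ sums of mice 1 and 3, Csf3r stood at 5.47 and 946 CPM and Cxcr2 at 3.49 and 1.76 CPM. The number of members per cell went with macrophage markers in peritoneum (Spearman rho = 0.763, n = 85), kidney (0.686, n = 44) and spleen (0.804, n = 35), and with RNA counts at -0.462, -0.388 and -0.428. In liver (n = 16) rho was 0.377 with macrophage markers and 0.312 with RNA counts, the latter opposite in sign to the other sites. The part of neutrophil or macrophage RNA in these detections was not tested.

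The bulk libraries, 1 per gate, organ and mouse and without a test, gave single values, in which fewer cells of a type and less RNA per cell cannot be told apart. In GFP+ bulk of the primary tumour, Arhgdib stood at 12.2 CPM in mouse 1 and 480 CPM in mouse 2, and Cd53 at 61.2 and 32.7 CPM, the same order of mice as in single cells. GFP+ bulk of the peritoneum of mouse 1 held Arhgdib at 83.6 CPM and the other 9 members at 0 to 1.46 CPM. CD45+ bulk of mouse 1 had 58 counts of members among 121118, a summed 479 CPM, below the 518 CPM of GFP+ bulk of the primary tumour of mouse 2, of which Arhgdib was 480 CPM, and above the 86.9 CPM of mouse 1. Srgn had 0 counts in that CD45+ bulk library, which allows up to 24.8 CPM by 3 counts, while single CD45+ cells of mouse 1 averaged 907 CPM.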

How the data were processed

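Expected counts per gene, made by the authors from the exonic reads of each library, and counts of the other reads in 5000 genomic bins were used as deposited. Cells were sorted singly, their complementary DNA amplified with 15 cycles and read as single 76-base reads, per the labels' protocols. The submitters' processing notes name STAR, kallisto, Bowtie 1.0 and mm9 without roles. Of expected counts 97.36% were whole. Of 24520 rows, 92 spike-in rows (0.000348% of counts) and 4 repeated symbols were left out. Among 2946 pairs of libraries of a mouse and group, peritoneum mouse 1 cells 37 and 46 (chi-square per degree of freedom of DNA counts 0.735) and 38 and 47 (0.854) fell under sampling noise, the next being 1.61. Their RNA gave 5.79 and 1.717, so that each is 1 library is not certain. Each pair was averaged.

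Cells with 500 genes and 10000 counts were summed per mouse and group, rounded and tested in R 4.3.3 with edgeR 4.0.16 (TMM, quasi-likelihood, Benjamini-Hochberg at 0.05), in 1 fit for the primary sorts (biological coefficient of variation 1.163) and 1 for the sites (1.08). The scripts were tested on simulated data. Alternatives were DESeq2 1.42.0, limma 3.58.1 on cell means, other scalings and filters, the mouse as a block, and leaving out a mouse. The DNA score is the slope of a cell's log2 chromosome ratios to the median CD45+ cell on the GFP+ profile over 19 autosomes. Restricting cells by it, at 0.5 and 0.25, was added after seeing the data.

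A number is a mouse, so same-numbered samples come from the same animal. Their deviations from group means correlated with a median of 0.0619 (0.0208 to 0.284) in the primary sorts and 0.084 (-0.326 to 0.459) in the sites, against -0.0429 and -0.0601 between mice. The members and gene lists were chosen with earlier results of these data known. All 10 members are named, with 10 relatives, up to 6 of 32 other leukocyte genes by smallest p and the 10 genes most like the members.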

Additional observations from a re-analysis of the deposited data

Results flagged for a closer look

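Bulk libraries of GFP- cells entered no comparison, and the summed level of the 10 members was higher there than in the GFP+ bulk library of the same mouse and organ. In GFP- cells of the primary tumour of mouse 1 the members summed to 1408.45 CPM, beside 86.9 CPM in GFP+ bulk, but that library held 8520 counts and 12 counts of members, 8 of Arhgdib and 4 of Cd48, with the other 8 members at 0 counts. In GFP- cells of the peritoneum of mouse 1 they summed to 1817.62 CPM, beside 88.3 CPM, from 1428 counts of members among 785644.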

How the results depend on the processing

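No result reversed. Members called in CD45+ cells against GFP+, EpCAM+ and GFP+EpCAM+ cells numbered 5, 8 and 6. DESeq2 called 8, 10 and 10, library totals without TMM 5, 9 and 10, limma on cell means 8, 7 and 9 with a pseudocount of 1 and 8, 8 and 9 with 0.1, and a fit of only the 2 groups compared 4, 4 and 8. Over all genes, 124, 122 and 233 of 19703 were called higher in the main fit. DESeq2 gave 889 of 17600, 1073 of 10620 and 1512 of 19816 with an adjusted p. Library totals gave 162, 189 and 391 of 19703. The limma fits gave 140, 79 and 178, then 167, 94 and 203, of 23106. The fit of 2 groups gave 173 of 19059, 42 of 16634 and 231 of 15274. Cells whose DNA matched the gate gave 3, 6 and 6, and with the lower cut 2, 4 and 6. Leaving out 1 mouse gave 1 to 4, 0 to 8 and 0 to 6, lowest without mouse 3. Over all genes those fits called 17 to 130, 10 to 136 and 10 to 175 higher, of 17889 to 20562 tested. DESeq2 called 1 member in EpCAM+ and 3 in GFP+EpCAM+ against GFP+ cells, all lower, beside 573 of 12322 and 477 of 14064 genes lower. Scaling moved the median of all genes in CD45+ against GFP+ cells from 0.20 to 1.09 with DESeq2 and 0.37 without TMM.

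With the mouse as a replicate block 4, 9 and 8 members were called, beside 102, 114 and 201 of all 19703 genes called higher. The pairing changed the call of Cd48, Srgn, Cd53 and Arhgdib as given above and of no other member.

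The share of member-and-cell pairs at 10 CPM was 70.2% in CD45+ cells (86.96% at 1 CPM, 45.7% at 100 CPM), 10.9% in GFP+ (25.4%, 5.13%), 21.2% in EpCAM+ (37.2%, 4.80%), 7.42% in GFP+EpCAM+ (21.6% at 1 CPM), 36.4% in kidney (48.2%, 19.3%), 31.25% in liver (36.9%, 8.13%), 20.3% in spleen (33.4%, 6.29%) and 21.6% in peritoneum (38.5%, 8.12%). Strict cells gave 34.1% in kidney and 36.7% in liver. Thinning, which kept 37 and 9 cells, gave 33.2% and 32.2%. DNA-matched cells gave 31.2% and 42.2%, or 31.4% and 39% with the lower cut. The cause was not tested. Depth limits the liver most, with 16 cells and 535652 counts in mouse 3.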
